A study of Homo sapiens with 6 samples.

Results

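The DNA damage and replication checkpoint was described through 10 genes, chosen by symbol in the deposited expression table: ATM, ATR, ATRIP, TOPBP1, TIMELESS, TIPIN, CLSPN, CHEK1, CHEK2 and WEE1. All 10 were among its 13696 genes, and all 10 were among the 13616 genes whose mean was at least 1 CPM (counts scaled to the library total), which were the genes tested. The cells were hTERT RPE-1, a line of human retinal pigment epithelial cells made immortal with telomerase. The untreated group had 3 libraries, and the pre-dose group had 3 libraries of cells given 25 nM camptothecin for 1 h and harvested 24 h after the drug was removed. Both groups were the same line in the same medium, and no genotype differed between them. The series concerns the adaptive response to topoisomerase 1 inhibitors, and the comparison asked what a low earlier dose left behind in gene expression.

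Camptothecin holds topoisomerase 1 on DNA, and replication forks that run into the trapped enzyme stall or break. ATR, carried to single-stranded DNA by ATRIP and switched on by TOPBP1, answers stalled forks. ATM answers double-strand breaks. Claspin (CLSPN) and the TIMELESS and TIPIN pair travel with the fork and pass the ATR signal to the kinase CHEK1, while CHEK2 takes the signal of ATM. WEE1 holds cyclin-dependent kinases off by phosphorylation, so that damaged cells do not enter mitosis. Most of this control acts on the proteins, by phosphorylation and turnover, and RNA levels do not read it.

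After the pre-dose, no checkpoint gene passed the test. In limma-trend on log2(CPM + 1), 0 of 10 had an adjusted p under 0.05, where 0.0% of all genes tested did, and 0 of 10 had an unadjusted p under 0.05, where 2.06% did. The fitted difference was below 0 for 9 of 10 members, against 50.6% of all genes, and the exception was ATM. The median difference was -0.06 on the log2 scale, beside -0.0013 over all genes. Its sign was shared by every setting tried, and it was -0.18 without pre-dose replicate 1 and -0.0315 without pre-dose replicate 2. The untreated and pre-dose libraries overlapped in all 10 members, so 0 of 10 had groups that were separate, where 6.55% of all genes had.

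Promoters of 3 members are printed because these genes carried the main patterns: TOPBP1 had the most negative fitted difference, and CLSPN and ATM varied most between libraries, in opposite directions. Each runs from 250 bases before the RefSeq start to 20 after it, on the strand of the gene, in GRCh38.p14. The ATM window is chr11:108222817-108223086 on the plus strand, that of CLSPN is chr1:35769959-35770228 on the minus strand, and that of TOPBP1 is chr3:133661922-133662191 on the minus strand. Capitals mark letters found on either strand: an E2F-type core (TTTCCCGC, TTTGGCGC, TTTCGCGC, TTTGCCGC, TTCCCGCC or TTGGCGGG), TTTGAA (the CHR element of G2 genes) and CCAAT.
ATM: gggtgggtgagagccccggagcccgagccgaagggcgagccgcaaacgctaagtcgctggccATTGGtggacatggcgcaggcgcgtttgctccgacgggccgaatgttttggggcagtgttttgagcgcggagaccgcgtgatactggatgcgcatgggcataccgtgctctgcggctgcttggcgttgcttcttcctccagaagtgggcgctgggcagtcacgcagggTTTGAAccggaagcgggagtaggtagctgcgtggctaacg
CLSPN: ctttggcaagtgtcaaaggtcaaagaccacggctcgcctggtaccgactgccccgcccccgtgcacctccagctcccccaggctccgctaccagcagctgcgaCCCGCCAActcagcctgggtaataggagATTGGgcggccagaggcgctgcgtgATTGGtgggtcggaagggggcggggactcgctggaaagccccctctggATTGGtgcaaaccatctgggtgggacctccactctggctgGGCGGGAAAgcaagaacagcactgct
TOPBP1: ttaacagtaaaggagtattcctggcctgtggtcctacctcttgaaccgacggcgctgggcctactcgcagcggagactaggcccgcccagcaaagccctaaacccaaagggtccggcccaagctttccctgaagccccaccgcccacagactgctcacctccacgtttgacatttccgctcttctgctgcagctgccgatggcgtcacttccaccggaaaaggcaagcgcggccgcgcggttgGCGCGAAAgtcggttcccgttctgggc

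In the windows of 300 bases, reaching 50 bases past the start, 9 of the 10 members had an entry, WEE1 being the member without one, and the window listed first was used for each gene. An E2F-type core stood in 2 of 9, CLSPN and TOPBP1, against 6.64% of all 27305 windows and 10.9% of the 9957 windows of genes tested. E2F factors drive genes of DNA synthesis. In CLSPN 2 of its 3 matches overlapped each other across the start, and the core of TOPBP1 also ended at its start. TTTGAA stood in 1 of 9, ATM, against 15.4% of all windows and 9.64% of those of genes tested. CCAAT, the letters that NF-Y binds, stood in 7 of 9 against 35.7% and 37.2%, with 3 copies each in CLSPN and CHEK2. A match of letters is not a measured binding site.

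The 2 libraries of replicate 1 stood apart from the other 4 across the transcriptome, and the labels name no batch. For 55.5% of all genes both replicate 1 libraries lay above or below all others. The effective library totals were 26336941 to 31780391 reads. Of 11 pigment epithelium markers, 3 were in the table, MITF (44.9 to 50.6 CPM), OTX2 (15.8 to 18.4 CPM) and BEST1 (4.14 to 5.40 CPM), and RPE65 was not among its genes. The summed level of those 3 was 65.4 to 69.3 CPM in untreated and 66.9 to 73.5 CPM in pre-dose libraries. Of 6 simple epithelium markers, 3 were in the table, KRT8 (869 to 979 CPM), KRT18 (413 to 461 CPM) and KRT7 (15.7 to 19.6 CPM), and KRT19, CDH1 and EPCAM were not among its genes. All 4 mesenchymal markers were in it, with VIM at 8644 to 11123 CPM and FN1 at 12585 to 20411 CPM. Blood markers in the table were 1 of 4, HBB at 13.7 to 19.0 CPM, and neuronal markers 2 of 4, TUBB3 at 255 to 400 CPM and SNAP25 at 0.967 to 1.61 CPM. Endothelial markers were 0 of 3, and PTPRC, PECAM1 and RBFOX3 were not among the table's genes. The labels do not say whether replicates were separate cultures, so the tests measure the spread between these libraries, which may be technical. In bulk RNA, fewer cells of a phase and less RNA per cell cannot be told apart.

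**Figure D1:**
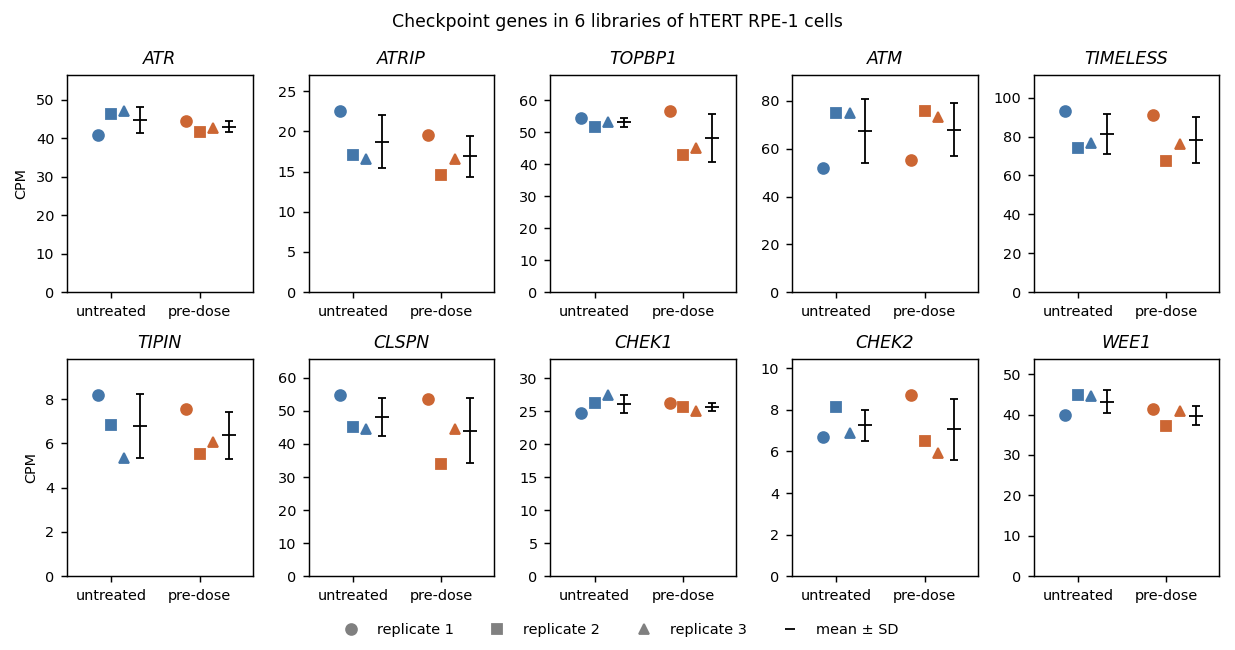
Level of each checkpoint gene in CPM (vertical axis, from 0) in 3 untreated (blue) and 3 pre-dose (orange) libraries, with the replicate number as the marker shape and the mean ± SD in black. The groups overlap in all 10 panels. The replicate 1 circle of ATM lies below the other libraries in both groups, and that of CLSPN lies above them.

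Among the sensors and the upstream kinases, TOPBP1 had the most negative fitted difference. TOPBP1 had 54.3, 51.6 and 53.2 CPM in untreated replicates 1, 2 and 3, and 56.7, 42.8 and 45.0 CPM in the pre-dose libraries of the same numbers. Pre-dose replicates 2 and 3 were its lowest libraries, and pre-dose replicate 1 was its highest, so the groups overlapped. The means were 53.03 ± 1.34 CPM and 48.1 ± 7.45 CPM (SD, n = 3 each). The log2 difference was -0.15, SE 0.11, with a 95% interval of -0.40 to 0.10 and an adjusted p of 1.00 in limma. A fit on replicates 2 and 3 alone had 2 libraries in each group and left out replicate 1, where TOPBP1 was higher after the pre-dose. An earlier look at these data had already found replicate 1 apart. In that fit TOPBP1 fell by 0.25 on the log2 scale, with an adjusted p of 0.0127 in limma. It was the only member past the threshold there, where 3.47% of all genes were called as lower. With the replicate number as a block its adjusted p was 0.479, and the authors' deposited table gave it a log2 difference of -0.23 with an adjusted p of 0.0520.

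ATR, the kinase of stalled forks, had 40.8, 46.3 and 47.1 CPM in untreated and 44.5, 41.7 and 42.6 CPM in pre-dose replicates 1, 2 and 3. Untreated replicate 1 was its lowest library, below every pre-dose library, while untreated replicates 2 and 3 were its highest. The means were 44.7 ± 3.43 CPM and 42.9 ± 1.39 CPM (SD, n = 3 each), a log2 difference of -0.06 with an interval of -0.23 to 0.12. ATRIP, the partner that brings ATR to DNA, had 22.6, 17.1 and 16.5 CPM in untreated and 19.6, 14.5 and 16.5 CPM in pre-dose replicates 1, 2 and 3. Both replicate 1 libraries were above the other 4. Its log2 difference was -0.14 with an interval of -0.48 to 0.21. In GENCODE, 27.9% of the ATRIP exon bases are shared with TREX1, an exonuclease gene on the same strand, so reads from the 2 genes may be mixed there. On the opposite strand, AC109992.1, a processed pseudogene, shares 16.4% of the ATR exon bases, and HSCB shares 6.70% of those of CHEK2. The strand setting of the counts is not given, so mixing is possible there too.

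ATM, the kinase of double-strand breaks, had 51.8, 75.1 and 75.1 CPM in untreated and 55.1, 75.8 and 73.1 CPM in pre-dose replicates 1, 2 and 3. Replicate 1 was low in both groups, and the other 4 libraries lay within 73.1 to 75.8 CPM. The means were 67.3 ± 13.4 CPM and 68.0 ± 11.3 CPM (SD, n = 3 each). The log2 difference was 0.02 with an interval of -0.39 to 0.43, and with the replicate block the interval was -0.08 to 0.12. ATM lies on chromosome 11 from 108222484 to 108369102 (GRCh38), ATR on chromosome 3 from 142449235 to 142578826, and TOPBP1 on chromosome 3 from 133598175 to 133662380. All 10 are protein-coding genes.

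All 3 fork proteins stood highest in the replicate 1 libraries. CLSPN, the adaptor that presents CHEK1 to ATR, had 54.9, 45.1 and 44.5 CPM in untreated and 53.5, 34.0 and 44.6 CPM in pre-dose replicates 1, 2 and 3. Pre-dose replicate 2 was its lowest library, and replicates 1 and 3 were nearly level between the groups. The means were 48.1 ± 5.82 CPM and 44.1 ± 9.77 CPM (SD, n = 3 each), and the log2 difference was -0.14 with an interval of -0.53 to 0.24. Without pre-dose replicate 2 it was 0.03.

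TIMELESS, which steadies the fork, had 93.2, 74.0 and 76.7 CPM in untreated and 90.9, 67.6 and 76.0 CPM in pre-dose replicates 1, 2 and 3. Its partner TIPIN had 8.20, 6.85 and 5.32 CPM and then 7.57, 5.52 and 6.04 CPM. In both genes the replicate 1 libraries were the highest 2 of the 6. The log2 differences were -0.06 (95% interval -0.36 to 0.24) for TIMELESS and -0.07 (-0.46 to 0.31) for TIPIN, and both turned above 0 without untreated replicate 1 (0.04 and 0.06) or without pre-dose replicate 2 (0.04 and 0.01). In GENCODE 21.0% of the TIPIN exon bases are shared with RPL9P25, a processed pseudogene on the same strand.

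Among the kinases that carry out the arrest, CHEK1 was the steadiest member. CHEK1 had 24.7, 26.2 and 27.5 CPM in untreated and 26.2, 25.6 and 25.0 CPM in pre-dose replicates 1, 2 and 3. All 6 libraries lay between 24.7 and 27.5 CPM, and only 9.47% of the genes tested had a smaller SD over the libraries. The log2 difference was -0.03 with an interval of -0.19 to 0.13. WEE1 had 39.99, 44.9 and 44.7 CPM in untreated and 41.3, 37.0 and 40.9 CPM in pre-dose replicates 1, 2 and 3. Untreated replicates 2 and 3 were its highest libraries, and untreated replicate 1 lay among the pre-dose values. The means were 43.2 ± 2.76 CPM and 39.7 ± 2.34 CPM (SD, n = 3 each). The log2 difference was -0.12, SE 0.08, with an interval of -0.30 to 0.06 and the smallest unadjusted p of the 10 in limma, 0.168 (adjusted p = 1.00). In replicates 2 and 3 alone WEE1 had a difference of -0.20 (adjusted p = 0.0620 in limma).

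CHEK2 had 6.72, 8.12 and 6.91 CPM in untreated and 8.72, 6.51 and 5.94 CPM in pre-dose replicates 1, 2 and 3. Its highest library was pre-dose replicate 1 and its lowest pre-dose replicate 3, so the treated libraries spanned the untreated ones. The means were 7.25 ± 0.761 CPM and 7.06 ± 1.47 CPM (SD, n = 3 each), and the log2 difference was -0.04 with an interval of -0.38 to 0.29. CHEK2 and TIPIN were the thinnest members, with 178 to 277 and 161 to 241 estimated reads a library. CHEK2 has 4 annotated pseudogenes, CHEK2P2 to CHEK2P5, and how reads that match several copies were counted is not given in the sources used here.

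**Figure D2:**
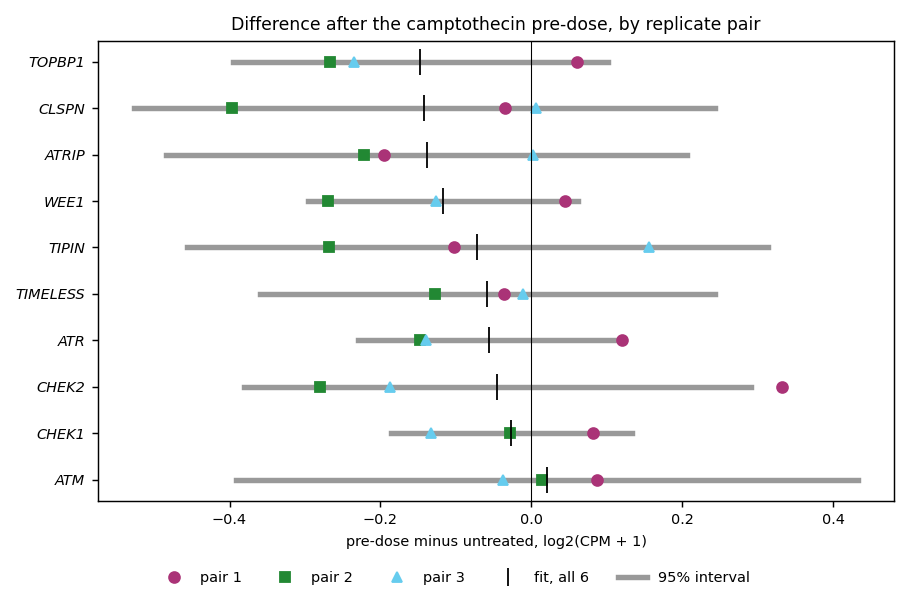
Pre-dose minus untreated on the log2(CPM + 1) scale (horizontal axis) for each gene (rows), as the difference of each same-numbered pair of libraries (coloured markers), the fitted difference over all 6 libraries (black tick) and its 95% interval (grey bar). Every interval spans 0. The pair 1 marker of CHEK2, at 0.33, lies outside its bar, and that of ATR, at 0.121, lies just past the end of its bar at 0.119.

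The pairs did not point the same way. A pair is the pre-dose library minus the untreated library of the same replicate number, with 1 library on each side. The correlations between libraries matched them by number for replicate 1 only, so pairs 2 and 3 rest on the labels. In pair 2, 9 of 10 members were below 0, against 50.7% of all genes, with a median of -0.24. In pair 3, 7 of 10 were, against 49.5%, with a median of -0.08. In pair 1, 4 of 10 were, against 51.6%, with a median of 0.05. ATRIP, CLSPN, TIMELESS and TIPIN were those below 0 in pair 1.

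TOPBP1, WEE1, ATR, CHEK2 and CHEK1 were lower in pairs 2 and 3 and higher in pair 1, a pattern of 5 of 10 members and 16.2% of all genes. TOPBP1 had 0.06, -0.27 and -0.24 in pairs 1, 2 and 3. ATR had 0.12, -0.15 and -0.14, and CHEK2 0.33, -0.28 and -0.19. WEE1 had 0.05, -0.27 and -0.13, and CHEK1 0.08, -0.03 and -0.13. Only TIMELESS was lower in all 3 pairs (-0.04, -0.13 and -0.01), where 16.3% of all genes were, and 0 of 10 were higher in all 3, where 15.6% were.

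A test of whether the effect differed between pair 1 and pairs 2 and 3, chosen after the data were seen, called 0 of 10 members in limma at an adjusted p of 0.05, where 1.11% of all genes were called. The smallest adjusted p was that of TOPBP1, 0.136, for a difference of 0.31 between the effects. At an unadjusted p under 0.05, 4 of 10 members passed, TOPBP1, ATR, CHEK2 and WEE1, where 12.3% of all genes did.

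In replicates 2 and 3 alone, the groups did not overlap for 5 of 10 members, all lower (TOPBP1, WEE1, ATR, CHEK2 and CHEK1), against 25.8% of all genes. There, ATR differed by -0.14 (adjusted p = 0.102 in limma), CHEK2 by -0.23 (0.250) and CHEK1 by -0.08 (0.481). CLSPN differed by -0.20 (0.268), ATRIP by -0.11 (0.475), TIMELESS by -0.07 (0.521), TIPIN by -0.06 (0.855) and ATM by -0.01 (0.911). The authors' deposited table had 0 of 10 past an adjusted p of 0.05, where 3.05% of its genes were. At an unadjusted p under 0.05 that table held 4 of 10, TOPBP1, WEE1, ATR and CHEK2, all lower, where 11.2% of its genes were lower at that level. In the authors' deposited table WEE1 had -0.15 (adjusted p = 0.112), ATR -0.13 (0.115), CHEK2 -0.24 (0.194), CHEK1 -0.10 (0.244), CLSPN -0.08 (0.662), ATRIP -0.06 (0.682), TIMELESS -0.03 (0.830), ATM -0.02 (0.901) and TIPIN 0.02 (0.928). The library quality weights of voom put replicate 1 at 0.230 and 0.199 and the other 4 libraries at 1.26 to 2.86. With those weights 0 of 10 passed, where 0.793% of all genes did, and TOPBP1 had an adjusted p of 0.0730.

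**Figure D3:**
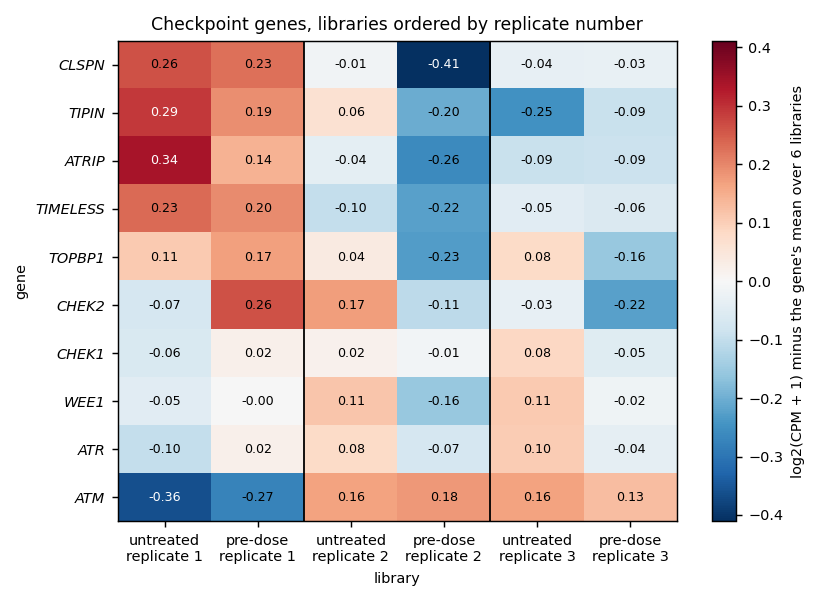
Level of each gene in each library as log2(CPM + 1) minus its mean over the 6 libraries (colour and printed value), with libraries (columns) ordered by replicate number and genes (rows) by the offset of replicate 1. The replicate 1 columns are above the mean for CLSPN, TIPIN, ATRIP, TIMELESS and TOPBP1 and below it for ATM, at -0.36 and -0.27. WEE1 is also below its mean in both, at -0.05 and close to 0.

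For 9 of 10 members the offset of replicate 1 was larger in size than the fitted difference, and WEE1 was the exception. The sizes were close in ATR (-0.058 against -0.056) and CHEK1 (-0.031 against -0.026). The share of all genes under this rule was not computed. Averaged over both groups, replicate 1 differed from the mean of replicates 2 and 3 by 0.37 on the log2 scale in CLSPN, 0.36 in TIPIN, 0.36 in ATRIP, 0.32 in TIMELESS and 0.21 in TOPBP1. These 5 had both replicate 1 libraries above the other 4, where 27.2% of all genes did. ATM differed by -0.48 and had both below, where 28.3% did. Together that is 6 of 10 members, near the 55.5% of all genes. WEE1 (-0.04), CHEK1 (-0.03) and ATR (-0.06) had offsets near 0, and CHEK2 had 0.15. CLSPN, for example, went from 42.1 CPM over replicates 2 and 3 to 54.2 CPM over replicate 1, and ATM from 74.8 to 53.5 CPM.

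Levels between genes were compared per kilobase of exon, with exon lengths from GENCODE 29. TIMELESS stood highest, at 13.7 ± 1.73 CPM per kb (SD, n = 6 libraries), and its lowest library was above the highest of CLSPN. CLSPN (8.52 ± 1.39) and TOPBP1 (6.93 ± 0.751) followed and overlapped each other. WEE1 (4.49 ± 0.321) and CHEK1 (3.94 ± 0.152) lay below TOPBP1 without overlap, and overlapped each other. CHEK1 and ATR (3.51 ± 0.203) nearly touched: the lowest library of CHEK1 was at 3.7697 and the highest of ATR at 3.7691 CPM per kb. From ATR down, neighbours overlapped in every case: ATRIP had 3.28 ± 0.522, ATM 2.82 ± 0.462, TIPIN 2.39 ± 0.419 and CHEK2 1.59 ± 0.234 CPM per kb. TIMELESS and TIPIN, which form a complex, thus stood far apart in this order. The exon length counts the bases of all annotated transcripts, 23972 for ATM, whichever of them the cells use.

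ATM and CLSPN had the largest SD over the 6 libraries, 0.25 and 0.24 on the log2 scale. The 5 genes closest to each in profile were found by Euclidean distance of centred log2(CPM + 1) over the 6 libraries. For CLSPN these were ASF1B (distance 0.0300), ABHD11 (0.1002), CHAF1B (0.1003), EMP2 (0.102) and MCM6 (0.106), with a median distance of 0.593 over all genes. ASF1B and CHAF1B are histone chaperones of newly made DNA, and MCM6 is a subunit of the replicative helicase. ABHD11 and EMP2, ranked between them, are not replication genes. For ATM the 5 closest genes were ITPR2 (0.0427), ANKRD12 (0.0436), YPEL5 (0.0452), LZTFL1 (0.0553) and ACSM5 (0.0687), with a median of 0.586. The offset of replicate 1 was 0.33 to 0.42 in the genes near CLSPN and -0.43 to -0.49 in the genes near ATM.

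Genes that work with the members were taken in 5 related lists. In limma 0 of their 62 genes passed, where 0.0% of all genes did. An unadjusted p under 0.05 was reached by 1, TICRR, where 2.06% of all genes reached it. For the counts below 0 that follow, the share over all genes was 50.6%. The 9-1-1 clamp, which marks damaged DNA for TOPBP1, had with its loaders and the RPA subunits 13 genes tested, 9 of them below 0, and a median difference of -0.08. RAD1, a ring subunit of the clamp, had 20.5 ± 0.976 CPM in untreated and 18.8 ± 1.27 CPM in pre-dose libraries (SD, n = 3 each). RAD9A, another subunit, had 10.1 ± 1.53 and 8.71 ± 0.652 CPM, and RPA1, which coats single-stranded DNA, 118 ± 4.68 and 110 ± 9.78 CPM (SD, n = 3 each). Sensors and mediators of the ATM arm had 11 genes, 7 below 0, and a median of -0.05. BRCA1 had 52.8 ± 0.422 and 46.1 ± 6.08 CPM, MDC1, the scaffold at marked breaks, 56.5 ± 2.63 and 52.3 ± 6.07 CPM, and RAD50, of the complex that recruits ATM, 49.8 ± 7.57 and 54.9 ± 4.53 CPM (SD, n = 3 each).

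Fork and replisome partners had 13 genes, 11 below 0, and a median of -0.11. TICRR, which works with TOPBP1 to fire origins, had 25.5 ± 0.918 CPM in untreated and 21.8 ± 2.07 CPM in pre-dose libraries (SD, n = 3 each). Its log2 differences were -0.14, -0.30 and -0.23 in pairs 1, 2 and 3, and the authors' deposited table had it past the threshold, at -0.24 (adjusted p = 0.0462). The targets of the checkpoint kinases and the cyclin-dependent kinase switch had 12 genes, all 12 below 0 in the fit, and a median of -0.17. Their medians were 0.09, -0.45 and -0.24 in pairs 1, 2 and 3. CDC25C, the phosphatase that CHEK1 and CHEK2 restrain, had 10.4 ± 0.998 and 9.36 ± 2.61 CPM, and CDK2, which WEE1 phosphorylates, 65.9 ± 3.83 and 57.2 ± 13.0 CPM (SD, n = 3 each). Both phosphatase and kinase were, in the authors' deposited table, past the threshold as lower (adjusted p = 0.0460 and 0.0467).

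Regulators of recovery and kinase stability had 13 genes, 9 below 0, and a median of -0.01. PPM1D, the phosphatase that ends checkpoint signals and a target of p53, had 12.8 ± 0.0870 CPM in untreated and 14.4 ± 2.30 CPM in pre-dose libraries. AURKA, the kinase that helps restart the cycle, had 72.1 ± 5.79 and 62.4 ± 24.2 CPM, and TTI1, a cofactor that stabilises ATM and ATR, 26.9 ± 2.97 and 25.0 ± 3.67 CPM (SD, n = 3 each). In replicates 2 and 3 alone 14 of the 62 genes of the 5 lists were called in limma, all lower. Of all genes tested, 3.47% were called as lower there. The 14 were CDC25A, CDC25B, CDC25C, CDK1, CDK2, CCNA2 and CCNB1 of the kinase switch, BRCA1, MDC1 and H2AX of the ATM arm, TICRR and DBF4 of the replisome, and PLK1 and AURKA of recovery. The largest of these differences were those of PLK1 (-0.52, adjusted p = 0.00187) and AURKA (-0.49, adjusted p = 0.00150). Of the members, TOPBP1 alone was called there.

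**Figure D4:**
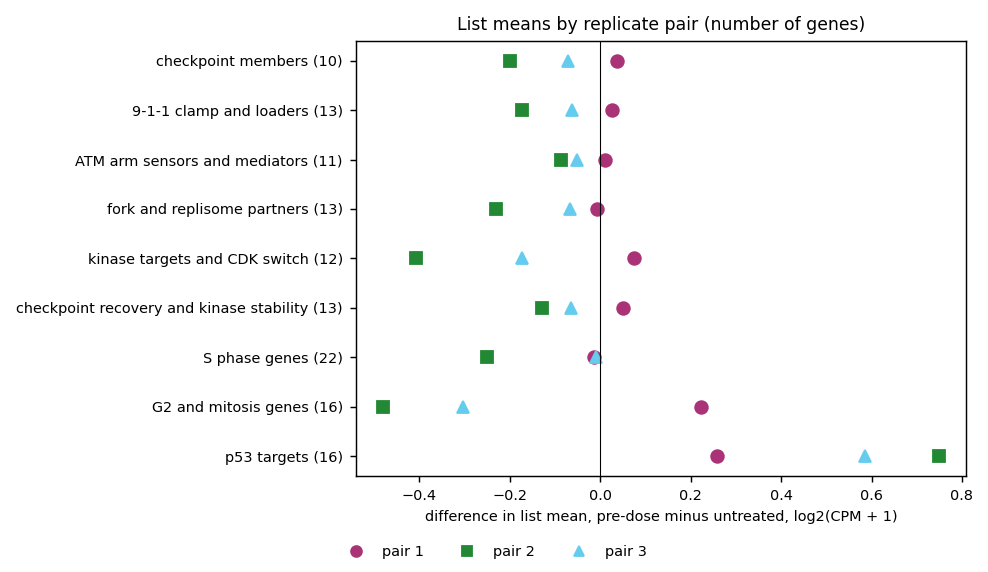
Difference of each list's mean log2(CPM + 1) between the pre-dose and untreated library of the same replicate number (horizontal axis), with the list and its number of genes as rows and the pair as marker. The 10 checkpoint genes lie at 0.04, -0.20 and -0.07 in pairs 1, 2 and 3, between the 9-1-1 and kinase switch lists, while p53 targets lie above 0 in all 3.

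Several members are transcribed most in S and G2 cells, so lists of cycle genes were set beside them. The mean of the 10 members was 4.98 ± 0.03 in untreated and 4.90 ± 0.12 in pre-dose libraries (log2(CPM + 1), SD, n = 3 each). G2 and mitosis genes had 6.61 ± 0.03 and 6.42 ± 0.34, and S phase genes 6.03 ± 0.21 and 5.94 ± 0.30. Both lists had 0 genes past the threshold in limma. All 16 G2 and mitosis genes were above 0 in pair 1 and below 0 in pairs 2 and 3, with medians of 0.21, -0.49 and -0.29. Among all genes, 16.2% had that pattern. The 22 S phase genes had medians of -0.04, -0.26 and -0.03. All 22 were higher in both replicate 1 libraries than in the others, where 27.2% of all genes were. The part of these 2 lists in the values of the members was not tested. Targets of p53, the transcription factor that ATM, CHEK1 and CHEK2 act on, were above 0 in all 3 pairs for 16 of 16 genes, with medians of 0.26, 0.59 and 0.51. Among all genes, 15.6% were higher in all 3 pairs. In limma 0 of the 16 p53 targets passed after adjustment and 10 had an unadjusted p under 0.05, where 2.06% of all genes did. The authors' deposited table had 12 past the threshold, all higher, where 3.05% of its genes passed in either direction. The lists were chosen with earlier results of these data known.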

How the data were processed

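RNA-seq of 6 libraries was analysed, 3 untreated and 3 pre-dose, grouped by their titles. Per the submitters' processing notes, bcl2fastq, DRAGEN, edgeR, limma and the build hg38 were used, without versions or roles. How reads were counted, with which strand setting and annotation, is not given in the sources used here. Deposited by the authors were log2 CPM values and, per the file headers, a comparison with log2 fold changes, p-values, adjusted p-values and a moderated statistic (a score). That comparison was coded untreated minus pre-dose and was turned here. After turning, its sign matched the plain difference of the deposited columns in 83.5% of genes. Before turning, its fold had a correlation of -0.688 with that difference. The authors' values are thus not the same contrast of the 6 libraries as the main fit, and how they were weighted or modelled is not given. Repeated gene rows (77) were dropped. Reading the lowest value of each column as 0 with 0.5 added gave estimated counts.

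limma-trend (limma 3.58.1, R 4.3.3) was fitted on log2(CPM + 1), a pseudocount of 1 CPM, to the genes whose mean reached 1 CPM. Tests were two-sided, with Benjamini-Hochberg adjustment over all 13616 genes and a threshold of 0.05. A fold on this scale understates changes of low genes. The fit was tested on simulated counts of independent libraries. The simulation held no offset like that of replicate 1, so it does not show how the fit behaves with one. Depth, 26336941 to 31780391 reads, made 3 counts worth 0.0944 to 0.114 CPM, which covers counting error only.

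The members and lists were chosen with earlier results of these data known. Named genes were the 10 members, list genes past the threshold here or in the authors' deposited table (at most 6 a list), otherwise the 3 with the smallest p, and the 5 nearest profiles of 2 members; the genes called in replicates 2 and 3 were named after their values were seen. Of the context lists, the genes that rule gave are not walked through singly.

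Deviations of same-numbered libraries from their group means had correlations across genes of 0.664, 0.454 and 0.176 for replicates 1, 2 and 3. Untreated replicate 3 with pre-dose replicate 2 reached 0.515, and untreated replicate 2 with pre-dose replicate 3 reached 0.276. These values matched the libraries by number for replicate 1 only, and the numbers were taken as pairs from the labels. Promoter windows came from RefSeq and exon lengths from GENCODE 29. Protein sequences were not analysed here. Figures were drawn with matplotlib 3.10.9.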

Additional observations from a re-analysis of the deposited data

How the results depend on the processing

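Pseudocounts of 0.5 and 0.1 CPM, no filter, a filter at a mean of 5 CPM, median centring, quantile normalization, voom and the replicate block left the number of members called at 0 and no member's direction changed. With the replicate block the member median was -0.06 and 0 of 10 members were called, and the block changed no other call. No scaling moved the median of all genes by over 0.1. In replicates 2 and 3 alone, with 2 libraries in each group, 1 member was called and 5 members had groups that did not overlap. There 14 of 62 genes of the related lists, 16 of 16 of G2 and mitosis and 15 of 16 p53 targets were called. Of all 13616 genes, 866 were called there, and groups did not overlap in 51.0%. With voom and library quality weights, 3 G2 and mitosis genes and 10 p53 targets were called, where 0.793% of all genes were. ATM, at 0.02, became -0.0178 with the weights and -0.0117 in replicates 2 and 3 alone. Leaving out each library in turn called 0 members and 0 genes of the lists. The member median then ran from -0.18 (without pre-dose replicate 1) to -0.0315, and 0 to 2 members had groups that did not overlap, ATR and WEE1 without untreated replicate 1, where 23.6% of all genes did in either direction, and CHEK2 and TOPBP1 without pre-dose replicate 1, where 33.3% did. Over the same fits ATM ran from -0.15 to 0.16, CHEK1 from -0.0641 to 0.00896, CHEK2 from -0.19 to 0.0550, CLSPN from -0.29 to 0.0282, TIMELESS from -0.17 to 0.0430 and TIPIN from -0.21 to 0.0567, while ATR ran from -0.12 to -0.0179, ATRIP from -0.24 (without pre-dose replicate 1) to -0.00429 (without untreated replicate 1), TOPBP1 from -0.27 (without pre-dose replicate 1) to -0.0683 (without pre-dose replicate 2) and WEE1 from -0.17 to -0.0681. The cause was not tested. Where 1 library of a pair is left out, the other's offset enters the contrast. In the main fit, without the block, the intervals of the 10 members lay within -0.53 to 0.43 on the log2 scale. A change inside a member's interval could not be told from 0 in that fit. With the replicate block all 10 intervals were narrower, lay within -0.33 to 0.24 and still spanned 0. The block takes its pairs from the labels.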
